A study of Homo sapiens with 6 samples.

Results

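The genes described here are 50 collagen and mesenchymal matrix genes: collagens, other proteins of the extracellular matrix, enzymes and chaperones that process collagen, and transcription factors and surface proteins of mesenchymal cells. They were chosen by name, with earlier results of these data known. Of the 50 genes, 45 had an array row annotated to them alone, out of 14232 genes with such a row, and the brightest row stood for FN1, which had a second. COL7A1, COL18A1, ACTA2 and PDGFRA were measured only by a row shared with another gene (4 genes). S100A4 was the 1 gene not analysed here.

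The cells were HCC827, an established line from a human lung adenocarcinoma that carries an activating deletion in EGFR. Total RNA was amplified and labelled, and the antisense RNA was hybridised to 6 exon arrays from Affymetrix. There were 3 arrays for the 3D cultures and 3 for the 2D cultures. The 3D cultures, which the study calls spheroids, were embedded, with Matrigel alone named in the sample labels. The study's methods name a mixture of growth medium, neutralized rat tail collagen I and Matrigel. For forming spheroids they name hanging drops or HydroCell plates, and which of these served for the arrays is not stated. The 2D cultures grew on dishes without coating. Matrigel is a basement membrane extract of a mouse sarcoma. Both groups were the same cell line, and no drug and no fibroblasts are named for them. Whether the replicates of a group came from separate cultures is not in the labels, so each p-value rests on the spread between arrays alone, which may be technical. Since RNA was taken from bulk cultures, more cells that express a gene and more RNA per cell cannot be told apart.

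Fibrillar collagens form the tensile fibres of connective tissue and are made mainly by fibroblasts, while epithelial cells make the network-forming collagen IV of the basement membrane on which they rest. Carcinoma cells that pass through an epithelial-mesenchymal transition lose epithelial adhesion and keratins and gain mesenchymal proteins such as fibronectin, vimentin and N-cadherin, under transcription factors of the SNAI, ZEB and TWIST families. Such a transition is known from lung cancer cells that resist inhibitors of EGFR.

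The values were RMA signals on the log2 scale, and the median over all 22011 rows was 6.26 on each array. Signals of different rows depend on their probes, and the values carry no detection call, so a position above or below the array median describes a row and does not order genes by transcript level. Over all rows, 84 passed an adjusted p of 0.05 in limma's test of 3D against 2D. On the first principal component, which held 43.1% of the variance, the scores were 22.8, 58.8 and -2.99 for 3D replicates 1, 2 and 3 and -33.3, -8.04 and -37.2 for 2D replicates 1, 2 and 3. 3D replicate 2 lay farthest out, and 3D replicate 3 and 2D replicate 2 lay close to each other between the groups.

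None of the 45 genes passed that threshold (0 higher and 0 lower in 3D), where 0.162% of all genes were called higher and 0.246% lower. At an unadjusted p of 0.05, 5 of the 45 (11.1%) were higher in 3D, against 7.46% of all genes, and 2 of the 45 (4.44%) were lower, against 7.12% of all genes. The 5 were FN1, TNC, TWIST1, COL6A2 and ZEB2, and the 2 were CDH2 and PLOD2. In 6 genes each 3D array lay above each 2D array (13.3%, against 14.3% of all genes), namely those 5 and BGN. In 3 genes, VCAN, CDH2 and PLOD2, each 3D array lay below each 2D array (6.67%, against 9.75% of all genes). Over the 45 genes together, all of these shares were within a few percentage points of the background. Of the 18 with a mean signal above the array median, 4 (22.2%) were higher at an unadjusted p of 0.05, against 7.94% of all such genes. This mean takes in the 3D arrays, so the split is not independent of the difference. TWIST1, which is 1 of the 4, and COL5A1 had 2D means of 6.12 and 6.15, below the array median. In the same 18, 1 (5.56%) was lower, against 9.93%. Of the 27 below it, 1 (3.7%) was higher, against 6.95%, and 1 (3.7%) was lower, against 4.05%.

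The median difference of the 45 genes, 3D minus 2D, was 0.17 on the log2 scale, against 0.071 over all 14232 genes, and the differences spanned -0.90 to 0.93. They were above 0 in 36 genes and below 0 in 9, while over all genes 8482 were above and 5750 below. Without 3D replicate 2 the median of the 45 genes was 0.073. For the 18 genes with a mean signal above the array median, the median difference was 0.25, against 0.023 over the 7422 genes of the table that also lay above it. For the 27 genes below the array median it was 0.12, against 0.11 over the 6810 such genes. Without 3D replicate 2 these medians were 0.14 against 0.020 above the array median, and 0.059 against 0.070 below it. The split by mean signal takes in the 3D arrays, and the 18 include TWIST1 and COL5A1, whose 2D means lay below the array median. These medians are therefore not independent of the difference. The 95% interval of the difference lay within -1 to 1 for 38 of the 45 genes, with a half-width of 0.33 to 0.71.

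**Figure D1:**
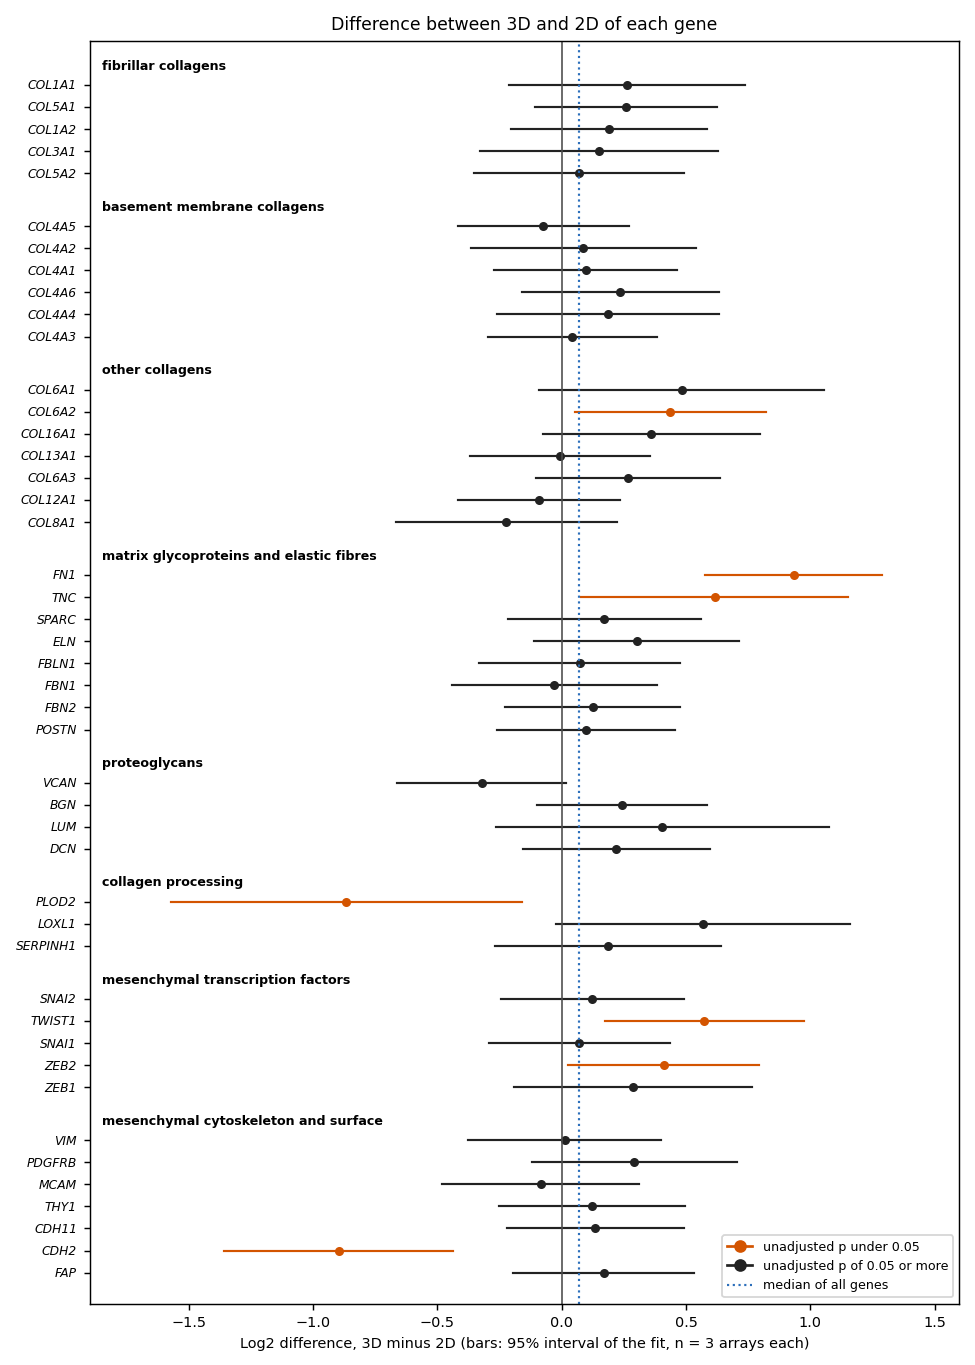
Log2 difference, 3D minus 2D, of each of the 45 genes by role (x axis), with the 95% interval of the limma fit over 3 arrays a group. FN1 at 0.93 and CDH2 at -0.90 lie farthest from 0, most intervals cross 0, and the dotted line is the median of all genes at 0.071.

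On all 6 arrays 15 of the 45 genes lay above the array median (33.3%, against 40.1% of all genes). They were COL4A2, COL4A5, COL6A1, COL6A2, FN1, TNC, SPARC, ELN, VCAN, BGN, VIM, SNAI2, LOXL1, PLOD2 and SERPINH1. A further 25 lay below it on each array (55.6%, against 38% of all genes), among them COL3A1, DCN, FAP and POSTN, which fibroblasts express strongly. COL1A1 lay above it on 5 arrays, COL16A1 on 4, COL5A1 and TWIST1 on 3 each and COL1A2 on 1. In TWIST1 these were the 3D arrays.

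**Figure D2:**
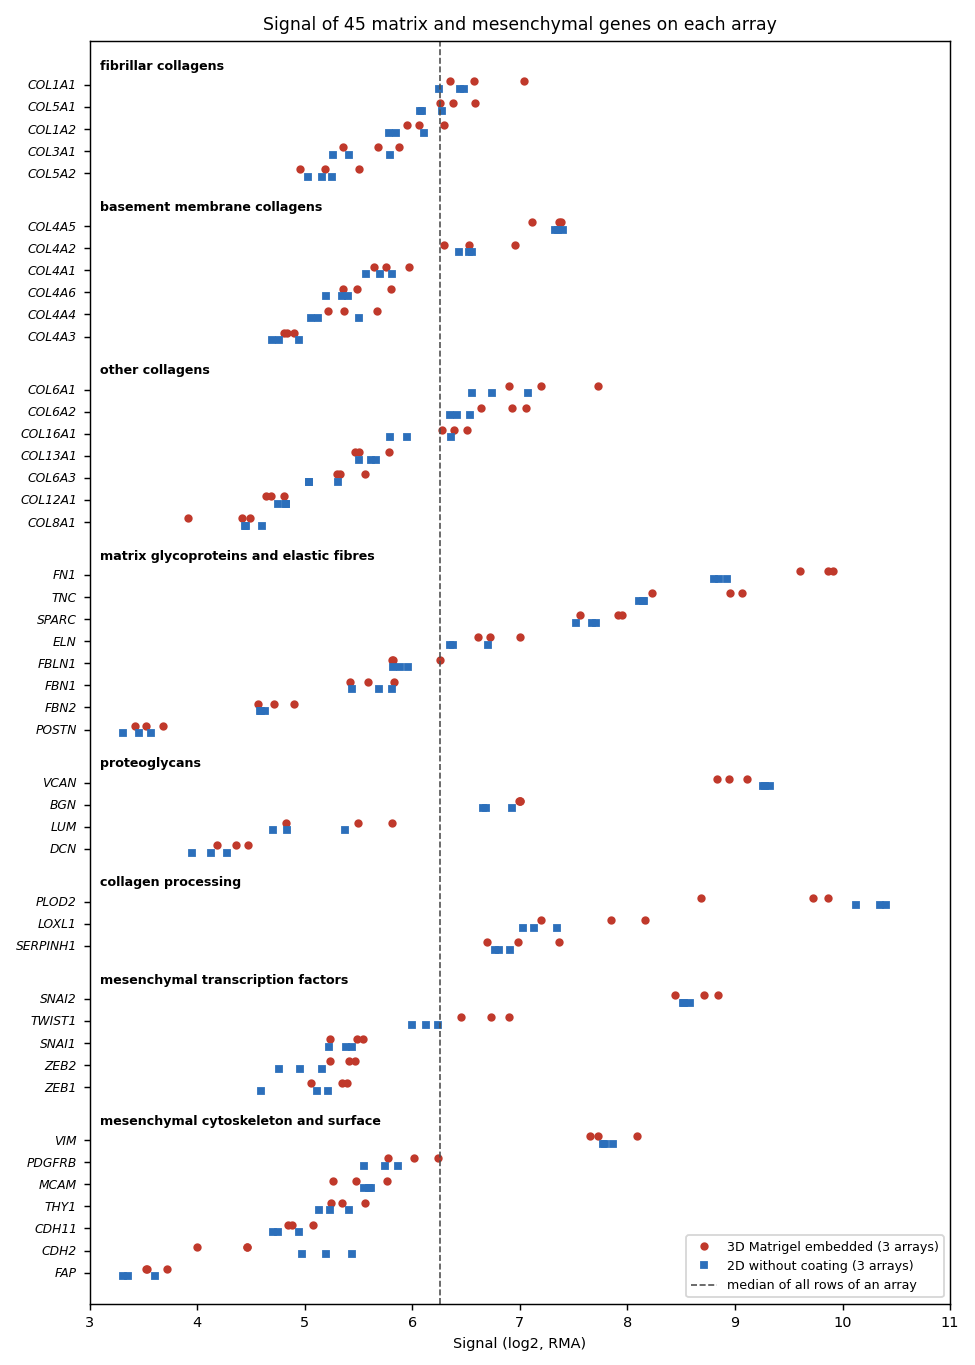
RMA signal on the log2 scale (x axis) of the 45 genes on each of the 3 3D arrays (circles) and 3 2D arrays (squares), by role, with the array median of 6.26 as a dashed line. In most genes circles and squares overlap, while FN1, TWIST1, CDH2 and PLOD2 show a gap between them.

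FN1 encodes fibronectin, the adhesive glycoprotein that cells bind through integrins and assemble into fibres. Its signal was 9.61, 9.87 and 9.92 on the 3D arrays and 8.80, 8.86 and 8.93 on the 2D arrays. The groups did not overlap, and the gap between them was wider than the range within either. The mean was 9.80 ± 0.17 in 3D and 8.86 ± 0.06 in 2D (SD, n = 3 each), a log2 difference of 0.93 (SE 0.15, 95% interval 0.58 to 1.29), which is 1.91-fold. The adjusted p was 0.0636 (unadjusted 0.000339), just short of the threshold. When p was adjusted over 1 row per gene, the adjusted p was 0.0238, and the call also passed with dim rows left out (0.0355) and with array weights (0.0314). With any 1 array left out the difference lay between 0.87 and 1.03 and the adjusted p between 0.073 and 0.28. A second FN1 row gave 9.35, 9.67 and 9.47 in 3D, against 8.47, 8.98 and 8.26 in 2D, a difference of the same size (0.93, SE 0.21, adjusted p = 0.126).

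The promoter window of FN1 is shown because no other of the 45 genes came closer to the threshold. It holds 250 bases before and 50 after the RefSeq start (GRCh38.p14, chr2:215436019-215436318, minus strand), and capitals mark a cyclic AMP response element, TGACGTCA at -183, and a CCAAT box at -162.
FN1: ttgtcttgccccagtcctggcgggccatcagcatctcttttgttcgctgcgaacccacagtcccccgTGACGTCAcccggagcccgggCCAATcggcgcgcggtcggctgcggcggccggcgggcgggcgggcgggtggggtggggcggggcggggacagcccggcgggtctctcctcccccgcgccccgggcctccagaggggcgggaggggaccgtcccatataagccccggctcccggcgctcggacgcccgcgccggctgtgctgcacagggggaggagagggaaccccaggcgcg
TGACGTCA, which reads the same on both strands, is held by 1.85% of all 35116 RefSeq windows of this length, and CCAAT, on either strand, by 34.6%. The 35 genes of the list with a window in the RefSeq table have 48 windows. Of these, 2 hold TGACGTCA (4.17%, in FN1 and MCAM) and 12 hold CCAAT (25.0%). These matches describe the letters of the window and were not set against binding.

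TNC encodes tenascin-C, a glycoprotein that modulates adhesion and is abundant in healing wounds and tumor stroma. Its signal was 8.23, 9.06 and 8.96 in 3D and 8.15, 8.11 and 8.15 in 2D. The 2D arrays lay close together, 3D replicate 1 lay just above them, and 3D replicates 2 and 3 lay far above. The difference was 0.62 (SE 0.23, unadjusted p = 0.0296, adjusted p = 0.285), and it was 0.46 to 0.88 with any 1 array left out. SPARC, which encodes osteonectin, a collagen-binding protein, had 7.56, 7.92 and 7.95 in 3D and 7.52, 7.67 and 7.71 in 2D, where the groups overlapped (difference 0.17, adjusted p = 0.633). ELN, the gene of elastin, differed by 0.30 (95% interval -0.11 to 0.71). The fibrillins FBN1 (-0.029) and FBN2 (0.12), the fibulin FBLN1 (0.072) and periostin, POSTN (0.098), had differences near the median of all genes, on rows below the array median.

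Enzymes and chaperones act on procollagen in the endoplasmic reticulum and on collagen fibres outside the cell. PLOD2, the lysyl hydroxylase that modifies the telopeptides and so sets the type of crosslink, had 9.73, 8.69 and 9.86 in 3D and 10.40, 10.13 and 10.35 in 2D. Each 3D array lay below each 2D array, and 3D replicate 2 lay far below the other 3D arrays. The mean was 9.43 ± 0.64 in 3D and 10.29 ± 0.14 in 2D (SD, n = 3 each), a difference of -0.87 (SE 0.31, 95% interval -1.57 to -0.16, unadjusted p = 0.0226, adjusted p = 0.263). Without 3D replicate 2 the difference was -0.50. LOXL1, a lysyl oxidase that starts crosslinks and acts on elastin in particular, had 7.85, 8.17 and 7.19 in 3D and 7.13, 7.35 and 7.03 in 2D. Here 3D replicate 3 lay within the 2D range, and the difference was 0.57 (SE 0.26, adjusted p = 0.345). Leaving out 3D replicate 2 gave 0.35, and leaving out 3D replicate 3 gave 0.84. SERPINH1, the gene of the collagen chaperone HSP47, differed by 0.19 (95% interval -0.27 to 0.64) and by 0.010 without 3D replicate 2.

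PLOD2 is known as a target of hypoxia-inducible factors, so its window is printed with the core of their binding site in capitals. The core is ACGTG, at -146, and reads CACGT where it lies on the other strand, at -200 (GRCh38.p14, chr3:146161135-146161434, minus strand).
PLOD2: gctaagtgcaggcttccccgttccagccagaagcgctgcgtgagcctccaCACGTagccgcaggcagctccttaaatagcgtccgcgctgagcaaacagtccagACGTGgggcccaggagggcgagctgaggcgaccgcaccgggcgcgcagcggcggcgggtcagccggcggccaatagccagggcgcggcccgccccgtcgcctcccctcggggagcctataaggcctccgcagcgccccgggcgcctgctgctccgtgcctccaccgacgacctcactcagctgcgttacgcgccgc
This form of the core is held by 21.4% of all windows and by 11 of the 48 windows of the 35 genes (22.9%). Binding was not measured. The CCAAT and GC boxes of this window and the GC boxes of the FN1 window are left in lower case.

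**Figure D3:**
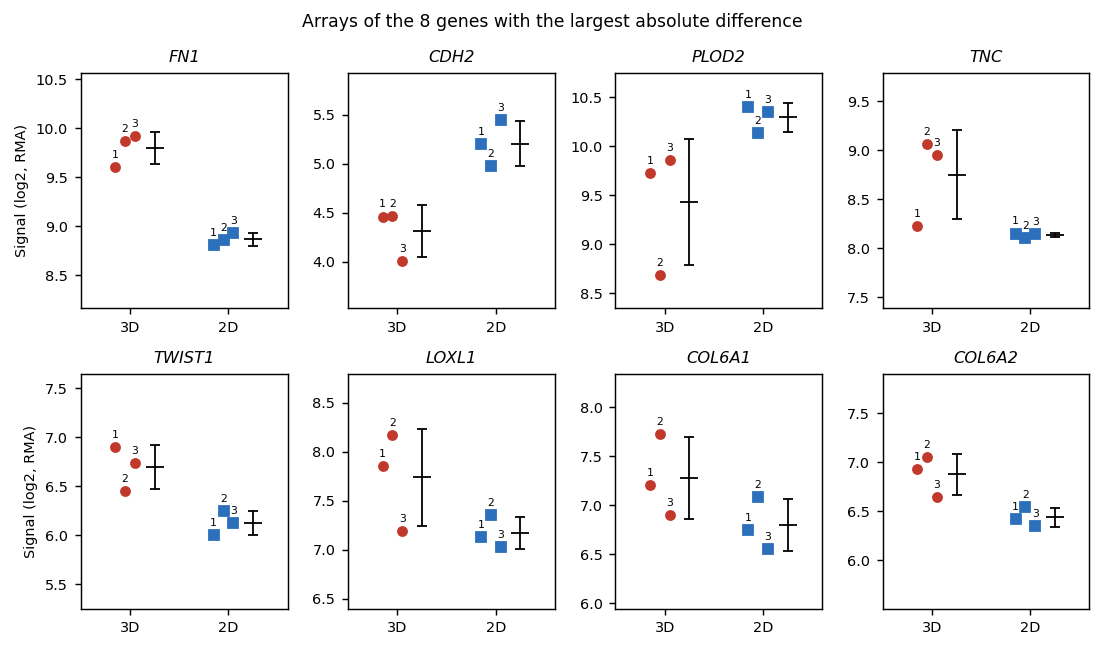
RMA signal on the log2 scale (y axis, a range of its own per panel) of the 8 genes with the largest absolute difference, on each 3D array (circles) and 2D array (squares) numbered by replicate, with the mean and SD (n = 3 each) as bars. In FN1, CDH2, PLOD2, TNC, TWIST1 and COL6A2 the groups do not overlap, and in PLOD2 the 3D array of replicate 2 lies at 8.69.

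The 5 fibrillar collagen genes, COL1A1 and COL1A2 of collagen I, COL3A1 of collagen III and COL5A1 and COL5A2 of collagen V, had differences of 0.069 to 0.26 with a median of 0.19, which was 0.073 without 3D replicate 2. All were above 0, and in all of them the groups overlapped, with the lowest adjusted p at 0.458. COL1A1 had 6.35, 7.04 and 6.57 in 3D and 6.25, 6.48 and 6.44 in 2D, so that its difference of 0.26 was 0.073 without 3D replicate 2. COL1A2, which encodes the other chain of collagen I, differed by 0.19 (95% interval -0.20 to 0.58). A further COL1A2 row, shared with PNLIP, differed by -0.038. COL5A1 differed by 0.26 and COL3A1 by 0.15, or 0.17 and 0.030 without 3D replicate 2. COL5A2 differed by 0.069, and by -0.076 without 3D replicate 2.

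The collagen IV genes encode 6 chains of the basement membrane network and lie in head-to-head pairs that share a stretch of promoter. COL4A1 had 5.76, 5.97 and 5.65 in 3D and 5.70, 5.81 and 5.57 in 2D, and its partner COL4A2 had 6.53, 6.95 and 6.30 in 3D and 6.56, 6.53 and 6.43 in 2D. The differences of this pair were 0.096 and 0.087, with overlapping groups. COL4A3 had 4.90, 4.83 and 4.80 in 3D and 4.70, 4.95 and 4.76 in 2D, and COL4A4 had 5.36, 5.67 and 5.21 in 3D and 5.06, 5.50 and 5.12 in 2D. Their differences were 0.043 and 0.19. COL4A5 had 7.39, 7.12 and 7.36 in 3D and 7.35, 7.33 and 7.40 in 2D, while COL4A6 had 5.49, 5.80 and 5.36 in 3D and 5.41, 5.35 and 5.20 in 2D. Their differences were -0.073 and 0.24, and no collagen IV gene had an adjusted p under 0.526. Without 3D replicate 2 the differences were 0.0080 for COL4A1, -0.094 for COL4A2, 0.059 for COL4A4, 0.012 for COL4A5 and 0.11 for COL4A6. Other arrays moved them too. COL4A1 was at 0.036 without 2D replicate 3, COL4A4 at 0.32 without 2D replicate 2, and COL4A3 at -0.0081 without 2D replicate 1. COL18A1, whose product releases endostatin, was measured with SLC19A1 in 1 row, which had 7.45, 7.94 and 7.22 in 3D and 6.97, 7.25 and 6.89 in 2D (difference 0.50, adjusted p = 0.333).

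The window of COL4A1 is printed to show how close such a pair lies (GRCh38.p14, chr13:110307108-110307407, minus strand). The RefSeq start of COL4A2, on the other strand, lies 127 bases from that of COL4A1 and within the window, and capitals mark GC boxes (GGGCGG, or CCGCCC on the other strand) at -249 and -67 and a CCAAT box, here ATTGG, at -26.
COL4A1: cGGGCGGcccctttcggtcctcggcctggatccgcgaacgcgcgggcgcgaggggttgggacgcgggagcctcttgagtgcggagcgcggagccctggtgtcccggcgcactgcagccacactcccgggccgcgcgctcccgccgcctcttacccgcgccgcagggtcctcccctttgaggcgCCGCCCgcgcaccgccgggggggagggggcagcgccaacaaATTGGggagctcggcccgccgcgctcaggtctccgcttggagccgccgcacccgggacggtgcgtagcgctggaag
The boxes at -67 and -26 lie between the starts. GC boxes are held by 44.95% of all windows and by 31 of the 48 windows of the 35 genes (64.6%). The starts of COL4A3 and COL4A4 lie 419 bases apart, and the start of COL4A5 lies 380 and 1416 bases from the RefSeq starts of COL4A6.

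Collagen VI forms beaded microfilaments from 3 chains. COL6A1 had 7.20, 7.73 and 6.90 in 3D and 6.75, 7.08 and 6.56 in 2D, and COL6A2 had 6.93, 7.05 and 6.64 in 3D and 6.42, 6.54 and 6.35 in 2D. In COL6A2 each 3D array lay above each 2D array, while in COL6A1 3D replicate 3 lay within the 2D range. The difference was 0.48 for COL6A1 (SE 0.25, adjusted p = 0.392, or 0.26 without 3D replicate 2) and 0.44 for COL6A2 (SE 0.17, unadjusted p = 0.0306, adjusted p = 0.285). The third chain, COL6A3, had a row below the array median and differed by 0.27 (adjusted p = 0.455). Of the remaining collagens, COL16A1, a fibril-associated collagen, differed by 0.36, COL12A1, also fibril-associated, by -0.092, the network-forming COL8A1 by -0.22 (-0.041 without 3D replicate 3), and the transmembrane collagen COL13A1 by -0.007, each with overlapping groups. COL7A1, the anchoring fibril collagen, was measured in a row with MIR711 that differed by 0.25 (adjusted p = 0.55).

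VCAN encodes versican, a large proteoglycan that binds hyaluronan. It had 8.95, 8.84 and 9.11 in 3D and 9.26, 9.28 and 9.33 in 2D. Each 3D array lay below each 2D array, and the 2D arrays lay close together. The difference was -0.32 (SE 0.15, 95% interval -0.66 to 0.02, adjusted p = 0.351). BGN, the gene of biglycan, a small leucine-rich proteoglycan of matrix fibres, had 7.002, 6.996 and 6.998 in 3D and 6.69, 6.92 and 6.66 in 2D, so that the groups did not overlap at a difference of 0.24 (adjusted p = 0.461). The related genes DCN (decorin) and LUM (lumican), both of which bind collagen fibrils, lay below the array median and differed by 0.22 and 0.41 with overlapping groups. For LUM, leaving out 3D replicate 1 gave 0.19, and leaving out 3D replicate 2 gave 0.68.

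The 5 transcription factors all had differences above 0, with a median of 0.29, and none passed the adjusted threshold. Without 2D replicate 2 the median was 0.12. TWIST1, a basic helix-loop-helix factor of mesoderm, had 6.90, 6.45 and 6.73 in 3D and 6.00, 6.24 and 6.13 in 2D. The groups lay on either side of the array median, without overlap, and the difference was 0.57 (SE 0.17, 95% interval 0.18 to 0.97, unadjusted p = 0.0107, adjusted p = 0.208). It was 0.47 to 0.70 with any 1 array left out. ZEB2, a zinc finger repressor of E-cadherin, had 5.41, 5.23 and 5.47 in 3D and 4.76, 5.16 and 4.96 in 2D, a difference of 0.41 (unadjusted p = 0.0393, adjusted p = 0.305) on a row below the array median. SNAI2 had 8.71, 8.84 and 8.44 in 3D and 8.58, 8.52 and 8.52 in 2D, where the groups overlapped (difference 0.12, adjusted p = 0.724). SNAI1 and ZEB1, repressors of the same families, lay below the array median on each array and differed by 0.071 and 0.29, where the difference of ZEB1 was 0.096 without 2D replicate 2.

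Of the surface and cytoskeletal genes, CDH2 encodes N-cadherin, the adhesion protein that replaces E-cadherin in mesenchymal cells. Its signal was 4.46, 4.46 and 4.001 in 3D and 5.20, 4.98 and 5.44 in 2D. Each 3D array lay below each 2D array, and all 6 lay below the array median. The mean was 4.31 ± 0.27 in 3D and 5.20 ± 0.23 in 2D (SD, n = 3 each), a difference of -0.90 (SE 0.20, 95% interval -1.36 to -0.44, unadjusted p = 0.00216, adjusted p = 0.118). With array weights the difference was -0.98 and passed the threshold (adjusted p = 0.0489). VIM, the gene of the intermediate filament protein vimentin, had 8.09, 7.72 and 7.66 in 3D and 7.87, 7.77 and 7.80 in 2D. The 3D arrays lay on both sides of the 2D arrays, and the difference was 0.012 (SE 0.17, 95% interval -0.38 to 0.40). The signals of CDH2, VIM and FN1, often read together as mesenchymal markers, thus had differences of -0.90, 0.012 and 0.93.

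PDGFRB (0.29), a growth factor receptor of pericytes and fibroblasts, FAP (0.17), a membrane protease of activated fibroblasts, THY1 (0.12), CDH11 (0.14) and the adhesion molecule MCAM (-0.084) all had rows below the array median and overlapping groups. In the shared rows, ACTA2, the smooth muscle actin gene, with FAS-AS1 differed by 0.29 (adjusted p = 0.522), and PDGFRA with FIP1L1 by 0.085 (adjusted p = 0.821).

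The arrays of the 3D group did not carry the differences evenly. For 24 of the 45 genes (53.3%, against 35.9% of all genes) 3D replicate 2 had the highest signal of the 6 arrays. The median deviation of the 45 genes from their 2D mean was 0.13, 0.28 and 0.026 on 3D replicates 1, 2 and 3, while over all genes it was 0.069, 0.15 and 0.027. The array SD was larger in 3D than in 2D for 33 of the 45 genes, and for 70.2% of all genes. Without 3D replicate 2, 34 of the 45 differences were above 0, against 56.6% of all genes. The part of this array in the differences was not tested further.

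**Figure D4:**
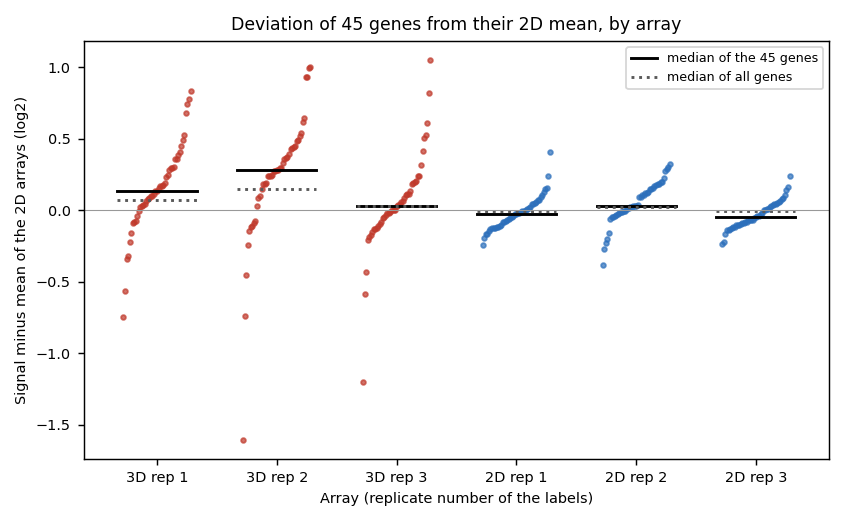
Deviation of each of the 45 genes from its mean over the 2D arrays (y axis, log2 scale) on each array (x axis), sorted within the array, with the median of the 45 genes as a solid line and that of all genes as a dotted line. The median is 0.28 on 3D replicate 2 and 0.026 on 3D replicate 3.

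The rest of the collagen pathway was described from lists that hold none of the 50 genes. Of 24 genes of collagen folding, modification and secretion, 19 had a row of their own, 0 passed the adjusted threshold, and at an unadjusted p of 0.05 0 were higher and 4 were lower in 3D (21.1%, against 7.12% of all genes). Their median difference was -0.059, and its sign turned without 2D replicate 2 (0.042). FKBP14, a prolyl isomerase of the endoplasmic reticulum, differed by -0.79 (adjusted p = 0.224) and P3H2, a prolyl 3-hydroxylase that acts on collagen IV, by -0.68 (adjusted p = 0.128). Of 24 further collagen genes, 20 had a row of their own, and 0 passed the adjusted threshold. Their median difference was 0.29, with 20 differences above 0. Over all genes the median was 0.071, with 59.6% above 0. Over genes with a mean signal below the array median it was 0.11, with 67.3% above 0. At an unadjusted p of 0.05, 2 of the 20 collagen genes were higher (10%, against 7.46% of all genes) and 0 lower. COL21A1 and COL10A1 had the largest differences, 0.56 and 0.55 (adjusted p = 0.196 and 0.268). Of these 20 rows, 11 lay below the array median on each array.

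Markers of cell types were read from the same arrays. Of 14 epithelial markers, 12 had a row of their own, and 10 of these lay above the array median on each array. Their median difference was -0.46, with 11 below 0 and 1, OVOL1 (0.021), above 0. At the adjusted threshold 0 passed, and at an unadjusted p of 0.05 0 were higher and 6 were lower in 3D (50%, against 7.12% of all genes). Over genes with a mean signal above the array median the share lower was 9.93%. CDH1, the gene of E-cadherin, differed by -0.34 (adjusted p = 0.427). EPCAM differed by -0.18 and KRT8 by -0.13, both with overlapping groups. KRT19, a keratin of simple epithelia, had 8.59, 9.01 and 7.94 in 3D and 9.57, 9.88 and 9.59 in 2D (difference -1.16, adjusted p = 0.127), and ESRP1, an epithelial splicing regulator, differed by -0.80 (adjusted p = 0.0887). The surfactant gene SFTPB, the 1 lung lineage marker measured of 3, differed by 0.59 (adjusted p = 0.195) below the array median.

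Fibroblast markers overlap the 50 genes. Of 10, 9 had a row of their own, 0 lay above the array median on each array, and 7 lay below it on each array. Their mean signal was 5.27, 5.22 and 5.06 in 3D and 4.97, 5.06 and 4.88 in 2D, with a median difference of 0.19. The 6 endothelial markers lay below the array median on all arrays (median difference 0.038). Of the 5 leukocyte markers measured of 6, CD68, a lysosomal protein that other cells also make, lay above the array median on all arrays and 3 lay below it on all, with a median difference of 0.25 (0.13 without 3D replicate 2). CD14 and LYZ had the largest differences there, 0.71 (adjusted p = 0.144) and 0.61 (adjusted p = 0.35). The part of other cells in the differences was not tested.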

How the data were processed

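Total RNA of HCC827 cells was amplified to labelled antisense RNA and measured on 6 arrays. The deposited values are log2 signals that the authors made with RMA in the R package oligo, per the submitters' processing notes (versions not given in the sources used here). RMA corrects background, normalizes by quantiles and summarises probes, so differences are relative to a signal distribution forced to be equal on all arrays, and low signals are compressed. The values were used as deposited. Rows were named from GEO's platform annotation: 14432 carried 1 symbol, 2408 several and 5171 none, and its genome build was not named in these sources. Starts and promoter sequences are from RefSeq (GRCh38.p14).

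Each row was compared, 3D minus 2D, with limma 3.58.1 in R 4.3.3 (2-sided, no covariate), with the Benjamini-Hochberg adjustment over all 22011 rows and a threshold of 0.05. The study's methods name limma. Where a gene had several rows of its own (197 genes), the brightest was used. Arrays have no read depth, so the precision depends on how many there were.

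The genes and lists were chosen with earlier results of these data known, so no test of a list is given. Values per array are given for the 8 genes with the largest absolute difference, the 8 with the highest mean signal, the collagen IV pairs and genes whose groups do not overlap or that show 1 array's weight. The last of these were chosen after their values were seen. Alternatives were a filter on dim rows (below percentile 40 of the mean signal), an intensity trend, a robust prior, array weights, a block for the replicate number, each array left out, a threshold of 0.01, the mean over rows of a gene, and adjustment over 1 row per gene. The fit was tested on simulated data. Python 3.11.15 with matplotlib 3.10.9 drew the figures.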

Additional observations from a re-analysis of the deposited data

How the results depend on the processing

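The count of genes past the adjusted threshold was 0 higher and 0 lower in 3D. It was 1 higher (FN1) with p adjusted over 1 row per gene, with array weights and with dim rows left out, where 21 of the 45 genes were tested, and 1 lower (CDH2) with array weights. Over all genes, the calls were 23 higher and 35 lower, against 58 and 127 over 1 row per gene, 101 and 167 with array weights, 29 and 82 with dim rows left out, and 0 and 0 at a threshold of 0.01. Leaving out any 1 of the 2D arrays gave 0 and 0. Leaving out 3D replicate 1 gave 1 and 1, replicate 2 gave 57 and 47, and replicate 3 gave 15 and 56. In none of these 6 fits was one of the 45 genes called. The cause of these shifts was not tested. The median difference of the 45 genes was 0.073 to 0.23 with 1 array left out.

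Of 561 values of single genes under the alternatives, 542 kept their direction and side of the threshold, 4 passed it anew and 15 changed direction, in 9 genes with differences near 0. With 1 array left out, these spanned -0.094 to 0.23 (COL4A2), -0.0081 to 0.12 (COL4A3), -0.12 to 0.012 (COL4A5), -0.076 to 0.20 (COL5A2), -0.11 to 0.051 (COL13A1), -0.14 to 0.066 (FBN1), -0.077 to 0.15 (FBLN1), -0.12 to 0.095 (VIM) and -0.22 to 0.035 (MCAM). With array weights FBLN1 was at -0.010.

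Deviations of arrays with the same replicate number correlated at 0.089, 0.37 and 0.22, and 5 of 6 arrays were closest to their own number. The labels do not say whether the numbers pair the cultures. The main fit left the number out, and whether arrays of the same number share an effect was not tested further. With the replicate block, 0 of the 45 genes were called, at a median difference of 0.17, and over all genes the calls were 22 higher and 31 lower.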
